A study of Mus musculus with 22 samples.

Results

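The 42 collagen genes measured here are the genes whose platform symbol reads Col, digits, a, digits, out of 18820 genes that had a probe set of their own. They comprise 11 fibrillar collagens, 8 basement membrane collagens and 23 other collagens. The rule reads symbols only and no measured value, though it was chosen with earlier results of these data known. Col5a1, Col6a5, Col6a6 and Col20a1 had more than 1 such probe set, and were represented by the brightest of them on average. Col7a1 and Col9a3 lay only on probe sets that name several genes and were not analysed here. The RefSeq gene table (GRCm38.p6) held 42 of the 42 under the same symbol and Entrez identifier.

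RNA came from whole hypothalami of 22 male C57BL/6 mice with no genetic modification named in the labels, 6 weeks old at inoculation and housed singly on a standard diet, with 1 array per mouse. Mice of the tumour-bearing groups had received Lewis lung carcinoma cells, a transplantable mouse tumour, in the muscle of a hind leg and were killed on day 10 (n = 5), day 14 (n = 7) or day 17 (n = 6) afterwards. The control group (n = 4) was killed on day 14 only, so the comparisons of days 10 and 17 with control also contain a difference in day. The labels do not say what the control mice were injected with. All mice were anaesthetised with ketamine and xylazine before they were killed, and the tissue was frozen whole.

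Collagens are secreted proteins in which chains wind into a triple helix. The fibrillar collagens form the banded fibres of connective tissue, which in the brain lie mainly in the meninges and around larger vessels, while type IV collagen builds the sheet of the basement membrane on which endothelial cells, pericytes and astrocyte endfeet rest. Types XV and XVIII sit at basement membranes and carry sugar chains, type VI forms beaded filaments between cells and matrix, and several of the other collagens span the cell membrane or decorate fibres. Brain tissue proper holds little fibrillar collagen, though some neurons and glia make collagens of the smaller types.

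The bases upstream of the start site are shown for Col1a2, Col3a1 and Col6a1, whose levels moved with meningeal fibroblast markers from mouse to mouse, as described further on. The RefSeq promoter table (GRCm38.p6) held no Col1a1 entry. Each run is the 250 bases before the annotated start, 5′ to 3′ along the gene. Capitals mark 3 short promoter motifs, each searched on either strand: TATAAA, which sets the start of transcription, CCAAT, which binds the factor NF-Y, and GGGCGG, which binds Sp1. No match overlapped another.
Col1a2 (chr6:4505368-4505617, + strand): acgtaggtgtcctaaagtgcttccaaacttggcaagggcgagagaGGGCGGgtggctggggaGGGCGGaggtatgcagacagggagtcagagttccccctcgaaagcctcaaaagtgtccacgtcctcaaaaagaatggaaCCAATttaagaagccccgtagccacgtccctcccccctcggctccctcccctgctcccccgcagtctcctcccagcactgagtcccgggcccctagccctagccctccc
Col3a1 (chr1:45311288-45311537, + strand): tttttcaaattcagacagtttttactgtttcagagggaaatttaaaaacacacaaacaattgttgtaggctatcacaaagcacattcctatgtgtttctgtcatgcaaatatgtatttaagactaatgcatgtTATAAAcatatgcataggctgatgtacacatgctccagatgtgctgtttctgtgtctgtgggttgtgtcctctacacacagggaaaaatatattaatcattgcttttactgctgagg
Col6a1 (chr10:76726045-76726294, - strand): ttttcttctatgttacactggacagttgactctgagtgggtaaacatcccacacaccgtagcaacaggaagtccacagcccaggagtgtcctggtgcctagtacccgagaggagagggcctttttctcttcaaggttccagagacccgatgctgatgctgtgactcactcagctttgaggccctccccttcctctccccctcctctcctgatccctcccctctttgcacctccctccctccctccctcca

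The Col1a2 run held 1 CCAAT, beginning 109 bases before the start, and 2 GGGCGG, of which the nearer began 188 bases before it. The Col3a1 run held 1 TATAAA, beginning 117 bases before the start, and the Col6a1 run held none of these letters. Among all 32851 promoters of the table, 12.4% held TATAAA, 33.8% held CCAAT and 32.7% held GGGCGG. Among the 37 promoters of the 34 collagens listed there, the shares were 13.5%, 32.4% and 56.8%. The 3 genes, each of which moved with the meningeal fibroblast markers, thus shared none of these 3 motifs within 250 bases. This describes these letters in this window only.

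The arrays were alike in scale, with medians of 5.27 to 5.34 (log2) and pairwise correlations of 0.980 to 0.995, and 0 pairs were identical. A value of 3.87, the 95th percentile of the means of 1182 olfactory and vomeronasal receptor probe sets, served as a measure of background, and 40 of the 42 collagens had a mean above it. The exceptions were Col4a6 (3.63) and Col10a1 (3.47). Hypothalamus markers averaged 8.15, 8.02, 8.26 and 8.18 in control and on days 10, 14 and 17. Because the deposited values are log2 RMA values and probes differ in response, levels are compared between mice for 1 gene and not between genes. Exceptions are the background measure and spreads set against those of other genes, which are rough guides for this reason. In RNA of a whole tissue, fewer cells of a type and less RNA per cell cannot be told apart.

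The collagens differed little between the groups. On day 17, Col15a1 fell by 0.36 ± 0.09 on the log2 scale against control (SE, n = 6 and 4, limma adjusted p = 0.0455), and it was the only collagen past an adjusted p of 0.05 in any of the comparisons. The count was thus 1 of 42 on day 17, where 1.12% of all genes passed (0.436% higher and 0.685% lower). It was 0 of 42 on day 10, where 0.106% of all genes passed (0.101% higher and 0.00531% lower), and 0 of 42 on day 14, where 0.218% did (0.197% and 0.0213%). Counted at an unadjusted p below 0.05, 11 collagens were higher and 0 lower on day 10, 6 higher and 2 lower on day 14, and 7 higher and 1 lower on day 17. The shares of all genes at that level were 5.27% higher and 5.43% lower on day 10, 4.28% and 6.18% on day 14, and 6.13% and 10.5% on day 17.

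Most collagens had a slightly higher mean in tumour-bearing mice than in control, though single genes did not pass. The mean was higher for 37 of 42 on day 10, 33 on day 14 and 30 on day 17, against 50.3%, 48% and 46.3% of all genes. The median difference over the 42 was 0.145, 0.060 and 0.088, against 0.001, -0.005 and -0.011 over all genes. The same counts were 38, 33 and 35 after median centring of the arrays and 35, 31 and 27 after a second quantile normalization, so the sign of the collagens' median held under these scalings. A family of genes at the low end of the scale also had mostly higher means than control. The 1157 olfactory and vomeronasal receptor genes, which brain tissue hardly expresses, had median differences of 0.089, 0.093 and 0.150, and 81.2%, 81.5% and 89.2% of them had the higher mean. From day 10 to day 17 the signs differed. The median difference was 0.066 for the receptors (73.3% higher) and -0.063 for the collagens (19% higher). The part of this shift of low values in the collagen differences was not tested. The 3 comparisons share the same 4 control mice and are not independent of each other.

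**Figure D1:**
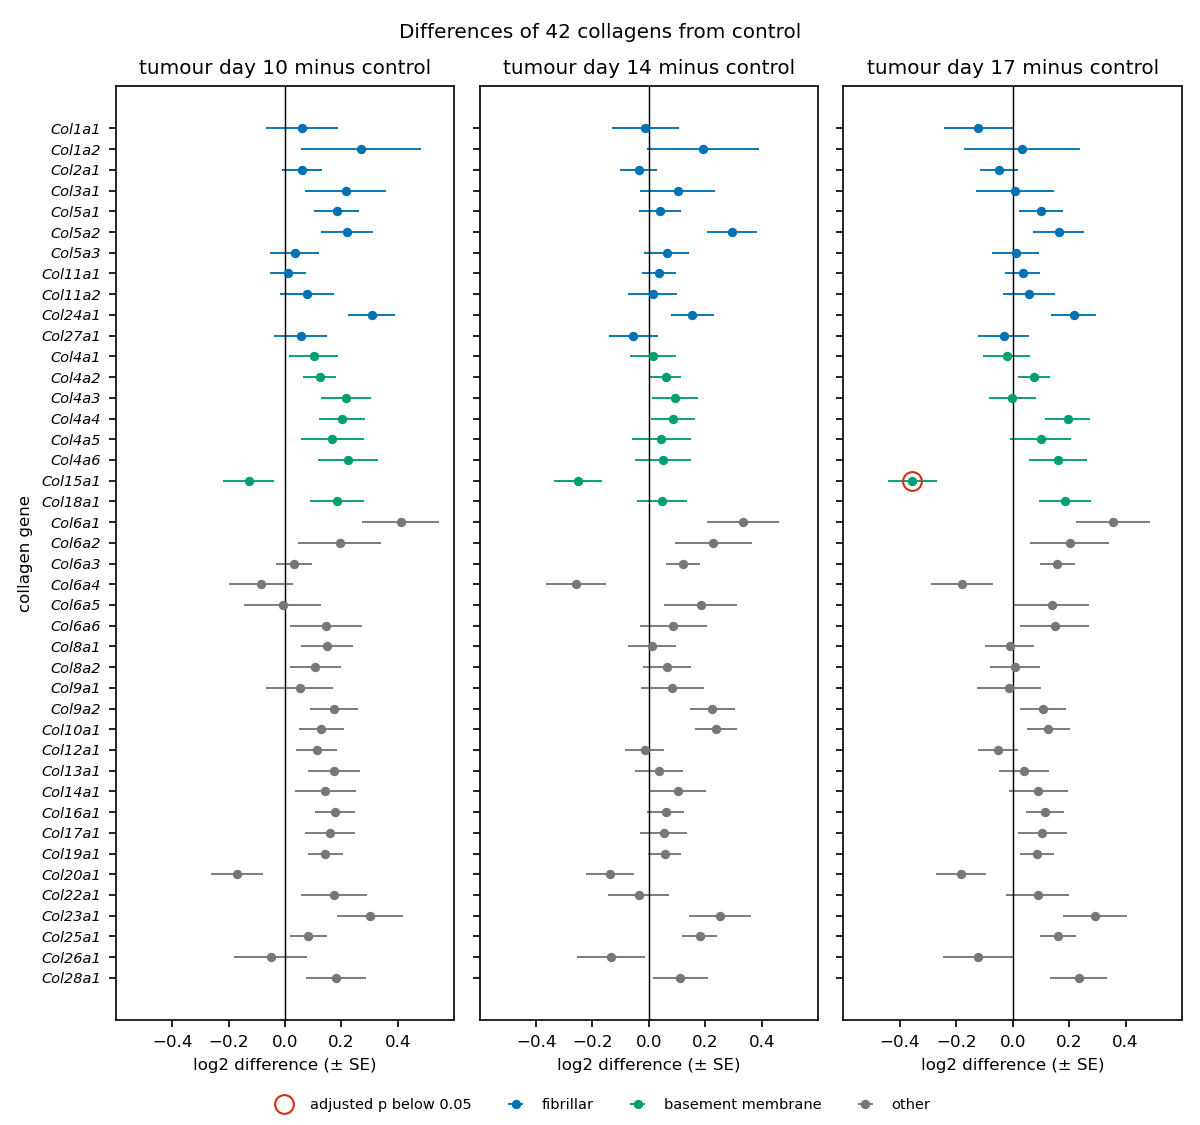
Log2 difference from control (x axis, tumour minus control, bars are SE) of each of the 42 collagens (y axis) on days 10, 14 and 17, coloured by class. Most points lie to the right of 0 on day 10 (37 of 42), and the ring marks Col15a1 on day 17 (-0.36), the only collagen past a limma adjusted p of 0.05.

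**Figure D2:**
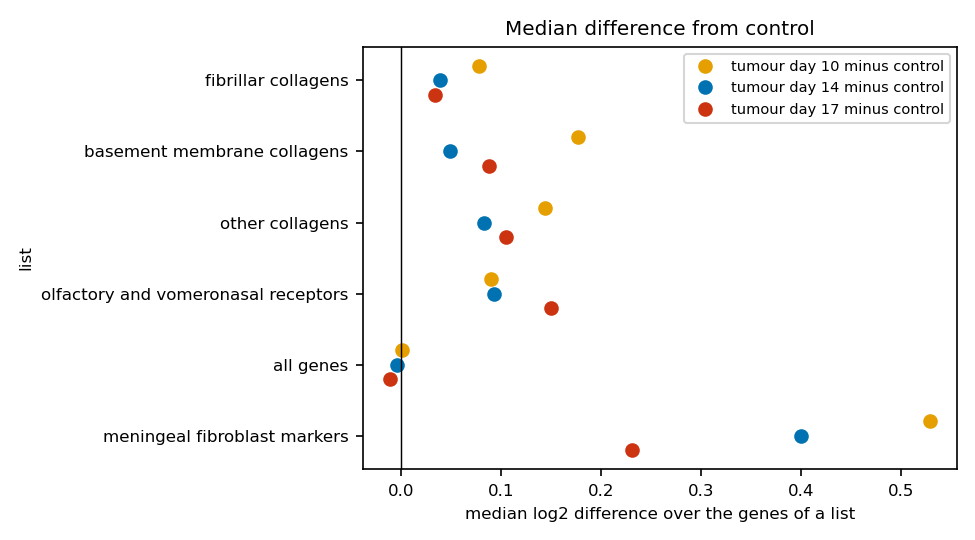
Median log2 difference from control (x axis) over the genes of each list (y axis), 1 point for each tumour day. The collagen classes lie between 0.034 and 0.177, the olfactory and vomeronasal receptors between 0.089 and 0.150, all genes near 0, and the meningeal fibroblast markers between 0.231 and 0.529.

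Among the fibrillar collagens, 0 of 11 passed the adjusted threshold in any comparison with control. Their median difference was 0.077 on day 10, 0.039 on day 14 and 0.034 on day 17, and 11, 8 and 8 of them had the higher mean. Of the 11, 3 were higher at an unadjusted p below 0.05 on day 10, 1 on day 14 and 1 on day 17, and 0 were lower. Here and for the other classes below, the shares of all genes at that level are those given above.

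Col1a1 encodes the major chain of type I collagen, the main fibre of meninges and vessel adventitia. Its log2 values were 5.30, 5.57, 5.70 and 5.64 in the controls and 5.58, 5.58, 5.46, 5.85 and 5.59 on day 10. They ran from 5.23 over a median of 5.55 to 6.04 on day 14 and from 5.24 over 5.43 to 5.61 on day 17. All groups overlapped, and the highest and lowest values of the series both came from day 14. The differences from control were 0.06 ± 0.13, -0.01 ± 0.12 and -0.12 ± 0.12 on days 10, 14 and 17.

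Col1a2, the partner chain of type I collagen, read 5.49, 5.54, 5.70 and 5.96 in the controls and 5.77, 6.02, 5.53, 6.41 and 5.99 on day 10. It ran from 5.27 over 5.86 to 6.56 on day 14 and from 5.39 over 5.66 to 6.20 on day 17. The spread within groups was wide and every tumour-bearing group reached both below and above the controls' median. The differences were 0.27 ± 0.21, 0.19 ± 0.20 and 0.03 ± 0.20. Its SD within groups, 0.35, stood at the 98.6th percentile of all genes.

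Col3a1 encodes type III collagen, found with type I in meninges and vessel walls. The controls read 4.03, 4.03, 4.34 and 4.12, and the mice of day 10 read 4.33, 4.36, 4.01, 4.71 and 4.31. Values ran from 3.80 over 4.20 to 4.71 on day 14 and from 3.94 over 4.15 to 4.31 on day 17. Replicate 4 of day 10 and replicate 1 of day 14 were the highest of their groups, as for Col1a2, whereas the highest control was replicate 3 here and replicate 4 for Col1a2. The differences from control were 0.22 ± 0.14, 0.10 ± 0.13 and 0.01 ± 0.14, and the groups overlapped.

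Col24a1, a fibrillar collagen known mainly from developing bone, gave the smallest p of all collagens on day 10. It read 4.11, 4.25, 4.38 and 4.31 in the controls and 4.80, 4.52, 4.41, 4.53 and 4.61 on day 10, so that every mouse of day 10 lay above every control. It ran from 4.28 over 4.43 to 4.63 on day 14 and from 4.27 over 4.52 to 4.55 on day 17, which overlapped the controls. The differences were 0.31 ± 0.08 (adjusted p = 0.176), 0.15 ± 0.08 (adjusted p = 0.493) and 0.22 ± 0.08 (adjusted p = 0.174).

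Col5a2, a chain of the type V collagen that regulates the width of type I fibres, gave the smallest p on day 14. The controls read 4.02, 3.97, 4.21 and 4.24, and the mice of day 10 read 4.26, 4.40, 4.35, 4.41 and 4.23. Values ran from 4.17 over 4.34 to 4.64 on day 14 and from 3.99 over 4.33 to 4.36 on day 17. Only the lowest mouse of day 14 lay within the range of the controls. The differences were 0.22 ± 0.09 (limma adjusted p = 0.413), 0.29 ± 0.09 (adjusted p = 0.194) and 0.16 ± 0.09 (adjusted p = 0.366).

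The remaining fibrillar collagens are given as group means in the order control, day 10, day 14 and day 17, with SDs within groups of at most 0.21. Col5a1, another type V chain, averaged 4.47, 4.66, 4.51 and 4.57. Col5a3, the third type V chain, averaged 4.46, 4.50, 4.53 and 4.47. The former was highest on day 10 and the latter on day 14. Col11a1, a type XI chain of cartilage fibres that is also expressed in brain, averaged 5.86, 5.87, 5.90 and 5.89. Its partner Col11a2 averaged 4.63, 4.71, 4.65 and 4.69. Col2a1, the cartilage collagen, averaged 5.00, 5.06, 4.96 and 4.95. Col27a1, a fibrillar collagen of cartilage, averaged 5.03, 5.08, 4.97 and 5.00. None of the 6 passed in any comparison with control by limma, and Col5a1 on day 10 had an unadjusted p of 0.0337.

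Among the basement membrane collagens, Col15a1 was lower on day 17 and 0 of the other 7 passed. Their median difference from control was 0.177, 0.049 and 0.088 on days 10, 14 and 17, and 7, 7 and 5 of the 8 had the higher mean. By unadjusted p below 0.05, 4 were higher on day 10, 0 on day 14 and 1 on day 17, while Col15a1 was lower on days 14 and 17.

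Col15a1 encodes type XV collagen, a proteoglycan that links basement membranes to the fibres around them and is found around vessels. Its log2 values were 5.10, 5.17, 5.16 and 4.87 in the controls and 5.08, 4.88, 4.85, 4.97 and 4.95 on day 10. They ran from 4.62 over 4.85 to 5.06 on day 14 and from 4.56 over 4.70 to 4.98 on day 17. Of the 6 mice of day 17, 5 lay below every control, and replicate 1 at 4.98 lay above the lowest control at 4.87. Group means were 5.07 ± 0.14, 4.94 ± 0.09, 4.82 ± 0.15 and 4.72 ± 0.15 (SD). The differences from control were -0.13 ± 0.09 on day 10 (adjusted p = 0.628), -0.25 ± 0.08 on day 14 (adjusted p = 0.256) and -0.36 ± 0.09 on day 17 (95% interval -0.54 to -0.18). The moderated F test over the 4 groups gave it an adjusted p of 0.17, and 0 of 42 collagens passed that test, where 0.335% of all genes did. In the same test 7 collagens (16.7%) had an unadjusted p below 0.05, against 11.8% of all genes.

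The call on Col15a1 was close to the threshold. It was lost in 14 of 22 limma fits with 1 array left out, with differences of -0.43 to -0.32 and adjusted p of 0.0226 to 0.160. The arrays whose absence ended it were control replicates 1, 2 and 3, replicates 2 to 5 of day 10, replicates 3 and 5 of day 14 and replicates 2 to 6 of day 17. Markers of the neighbouring thalamus moved in the same direction. All 9 had a lower mean than control on each day, 0 passed, and their mean level was 6.72 (6.15 to 7.53) in control and 6.22 (6.11 to 6.57), 6.27 (6.05 to 7.05) and 6.22 (6.03 to 6.81) on days 10, 14 and 17. When the fit included the mean of these markers, the day 17 difference was -0.28 (adjusted p = 0.128). Without the 4 arrays highest in those markers, which leaves 2 controls, it was -0.36 (adjusted p = 0.363). Within the last 13 arrays in order of deposition, with 3 controls, it was -0.37 (adjusted p = 0.199). The first 9 arrays hold 1 control, whose spread the fit takes from the other groups, and the difference there was -0.36 (adjusted p = 0.735).

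Col18a1 encodes type XVIII collagen, the heparan sulphate proteoglycan of vessel basement membranes from which endostatin is released. It read 4.69, 4.62, 4.73 and 4.42 in the controls and 4.94, 4.58, 4.75, 4.92 and 4.82 on day 10, and ran from 4.51 over 4.64 to 4.99 on day 14 and from 4.64 over 4.79 to 4.99 on day 17. Most mice of days 10 and 17 lay above the controls, with overlap in each group. The differences were 0.19 ± 0.09, 0.05 ± 0.09 and 0.19 ± 0.09 (adjusted p = 0.313 on day 17).

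Col4a1 and Col4a2 encode the chains of the common type IV collagen and are transcribed in opposite directions from start sites 21 bases apart on chromosome 8 (11312826 and 11312805, GRCm38.p6). Col4a1 read 5.61, 5.45, 5.43 and 5.27 in the controls and 5.80, 5.53, 5.47, 5.51 and 5.38 on day 10, and ran from 5.32 over 5.42 to 5.76 on day 14 and from 5.36 over 5.43 to 5.46 on day 17. The groups overlapped, and the mice of day 17 lay closest together. Col4a2 read 5.94, 6.06, 6.02 and 6.08 in the controls and 6.14, 6.26, 6.13, 6.09 and 6.11 on day 10. Every mouse of day 10 lay above every control. Later values ran from 5.92 over 6.08 to 6.23 on day 14 and from 6.04 over 6.10 to 6.19 on day 17. The differences from control were 0.10 ± 0.09, 0.01 ± 0.08 and -0.02 ± 0.08 for Col4a1 and 0.12 ± 0.06, 0.06 ± 0.05 and 0.08 ± 0.06 for Col4a2.

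The other type IV chains, which replace the common ones in the membranes of kidney, eye and ear, stood near background. Col4a3 averaged 4.03, 4.25, 4.12 and 4.03 in control and on days 10, 14 and 17. Every mouse of day 10 lay above every control and above every mouse of day 17. Col4a4, its neighbour and partner, averaged 3.90, 4.10, 3.98 and 4.09. Col4a5 averaged 4.16, 4.33, 4.21 and 4.26. Col4a6 had a mean below the background measure in every group and was higher on day 10 at an unadjusted p of 0.0458 only.

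**Figure D3:**
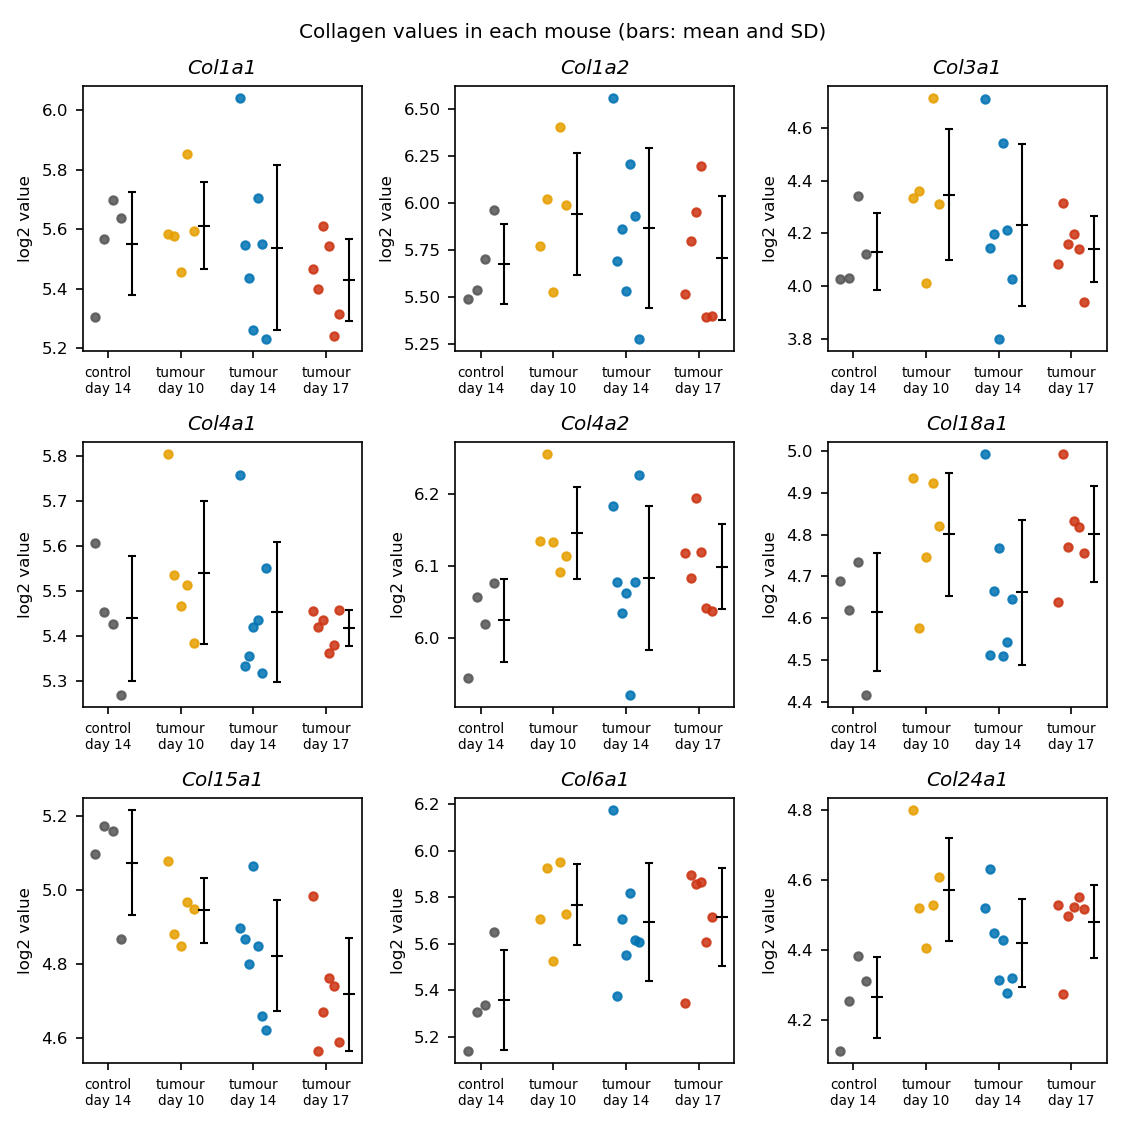
Log2 value (y axis) of 9 collagens in each of the 22 mice, by group (x axis), with mean and SD beside the points. Col15a1 steps down from 5.07 in control to 4.72 on day 17. Col1a2 spreads widely within each tumour-bearing group (SD 0.33, 0.43 and 0.33 on days 10, 14 and 17). Col1a1 and Col3a1 spread most on day 14 (SD 0.28 and 0.31) and less on day 17 (0.14 and 0.13) than in control (0.17 and 0.15).

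Among the 23 other collagens, 0 passed in any comparison with control. Their median difference was 0.143, 0.083 and 0.105 on days 10, 14 and 17, and 19, 18 and 17 had the higher mean. At an unadjusted p below 0.05, 4 were higher and 0 lower on day 10, 5 higher and 1 lower on day 14, and 5 higher and 0 lower on day 17. In the same order, the shares of all genes were 5.27% and 5.43%, 4.28% and 6.18%, and 6.13% and 10.5%.

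Col6a1, a chain of the filament-forming type VI collagen made by fibroblasts and mural cells, showed the largest higher mean of any collagen on each day. It read 5.14, 5.31, 5.34 and 5.65 in the controls and 5.71, 5.93, 5.53, 5.95 and 5.73 on day 10, where only replicate 3 lay below the highest control. It ran from 5.38 over 5.62 to 6.17 on day 14 and from 5.35 over 5.79 to 5.89 on day 17. The differences were 0.41 ± 0.14 (adjusted p = 0.296), 0.33 ± 0.13 (adjusted p = 0.343) and 0.36 ± 0.13 (adjusted p = 0.178), with 95% intervals of 0.13 to 0.69, 0.07 to 0.60 and 0.08 to 0.63. Col6a2, its partner chain, averaged 5.33, 5.52, 5.56 and 5.53 in control and on days 10, 14 and 17, and Col6a3, the long chain of the same filament, averaged 4.18, 4.21, 4.30 and 4.34. The alternative type VI chains did not pass the threshold on any day. Col6a4 averaged 4.03, 3.94, 3.77 and 3.85, the controls spreading from 3.75 to 4.45. Col6a5 averaged 4.92, 4.91, 5.11 and 5.06, with the other sign of difference on its second probe set, and Col6a6 averaged 4.84, 4.98, 4.93 and 4.99.

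Several membrane-spanning collagens, which are anchored in the cell surface, belong to this class. Col23a1 averaged 5.80, 6.10, 6.05 and 6.09 in the same order, with differences from control of 0.30 ± 0.12, 0.25 ± 0.11 and 0.29 ± 0.11 (limma adjusted p = 0.365, 0.426 and 0.203). Col25a1, a neuronal collagen first found in amyloid plaques, averaged 6.90, 6.98, 7.08 and 7.06, a difference of 0.18 ± 0.06 on day 14 (adjusted p = 0.283). Col13a1, which acts at the neuromuscular junction, averaged 4.09, 4.26, 4.13 and 4.13. Col17a1, of skin hemidesmosomes, averaged 4.02, 4.18, 4.08 and 4.13. Groups overlapped for each of these genes on each day.

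The collagens that sit on fibre surfaces or bridge them were likewise close to control. Col9a2, a chain of the cartilage collagen type IX, averaged 5.15, 5.32, 5.37 and 5.26, and its partner Col9a1 averaged 4.49, 4.54, 4.57 and 4.47. Col12a1 averaged 5.52, 5.63, 5.50 and 5.47. Col14a1 averaged 4.38, 4.52, 4.48 and 4.47. For Col14a1, replicate 1 stood apart as the highest mouse in each tumour-bearing group. Col16a1 averaged 4.81, 4.99, 4.87 and 4.92. Col19a1, which is made by some neurons and shapes their synapses, averaged 4.66, 4.81, 4.72 and 4.75, and every mouse of day 10 lay above every control. Col20a1 averaged 5.24, 5.07, 5.11 and 5.06, and its mean was below that of control on each day. Col22a1, of tissue junctions, averaged 4.33, 4.50, 4.29 and 4.42.

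Col8a1 and Col8a2, the chains of the network-forming type VIII collagen of vessel walls and the cornea, averaged 5.27, 5.42, 5.28 and 5.26 and 4.08, 4.18, 4.14 and 4.08. Col26a1 averaged 5.56, 5.51, 5.43 and 5.44. Col28a1, known from glia of peripheral nerve, averaged 3.84, 4.03, 3.96 and 4.08, which straddles the background measure. Col10a1, the collagen of growth plate cartilage, stayed below it, with means of 3.33, 3.46, 3.57 and 3.45. Col10a1 was the only collagen of which every mouse of each tumour-bearing group lay above every control, a pattern found on a probe set at background level. In all, 5 collagens did not overlap the controls on the higher side on day 10 (Col4a2, Col4a3, Col10a1, Col19a1 and Col24a1), against 2.21% of all genes. On days 14 and 17 this held for Col10a1 alone, against 0.776% and 1.66% of all genes, and 0 collagens lay below every control on any day, against 2.24%, 1.06% and 3.3% of all genes on days 10, 14 and 17.

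Between tumour days, 0 of 42 collagens passed in limma. That was also so for nearly all genes, of which 0.00531% passed between days 14 and 10 and 0% passed in the comparisons of day 17 with days 10 and 14. At an unadjusted p below 0.05, 2 collagens were lower and 0 higher on day 14 than on day 10, against 4.09% and 3.04% of all genes (7.13% in all). They were Col24a1 (-0.15 ± 0.07, adjusted p = 0.684) and Col22a1 (-0.21 ± 0.10). Between days 17 and 10, 3 were lower and 1 higher, against 5.22% and 3.08% of all genes (8.3% in all). The differences were -0.23 ± 0.08 for Col15a1, -0.22 ± 0.08 for Col4a3, -0.16 ± 0.07 for Col12a1 and 0.13 ± 0.06 for Col6a3, with adjusted p of 0.488 to 0.591. Between days 17 and 14 the count was 0, against 1.82% of all genes higher and 2.35% lower (4.17% in all), and the smallest p belonged to Col18a1, which was higher by 0.14 ± 0.08. The mean was lower on day 14 than on day 10 for 31 of 42 collagens and higher for 11, where 46.5% of all genes were higher. It was lower on day 17 than on day 10 for 34 and higher for 8, where 43.5% of all genes were higher. Col4a3 was the only collagen whose mice of day 17 all lay below those of day 10, a pattern shown by 0.521% of genes.

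The differences between mice of a group were larger for some collagens than any difference between groups. The meningeal fibroblast markers spread widely within each group. The mean of their 12 genes was 5.78 (5.48 to 6.25) in control, 6.29 (5.45 to 6.97) on day 10, 6.14 (5.17 to 6.96) on day 14 and 6.01 (5.23 to 6.84) on day 17. Of the 12, 12, 11 and 11 had the higher mean than control, 0 passed, and Lum alone had a mean below background. The markers of mural cells averaged 6.01, 6.20, 6.21 and 6.10 (11 genes, 9, 10 and 9 higher, 0 past the threshold). Those of endothelial cells averaged 6.78, 6.85, 6.87 and 6.88 (11 genes, 8, 7 and 8 higher, 0 past the threshold), and those of oligodendrocyte precursors 7.72, 7.71, 7.72 and 7.64 (4 genes, 3, 1 and 2 higher, 0 past the threshold). Red cell markers were much higher in tumour-bearing mice, with a mean of 4.85 (4.30 to 5.85) in control and 5.87 (5.48 to 6.80), 6.71 (5.80 to 7.44) and 7.11 (6.72 to 8.23) on days 10, 14 and 17, and Alas2 and Slc4a1 passed on days 14 and 17. With the meningeal marker mean in the fit, the median difference of the 42 collagens from control was 0.103, 0.056 and 0.079 on days 10, 14 and 17, against 0.145, 0.060 and 0.088 without it. With the endothelial mean it was 0.122, 0.032 and 0.053, and with the thalamus mean 0.133, 0.057 and 0.066. The part of the other markers in the collagen values was not tested.

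From mouse to mouse, type I and type III collagen moved with the meningeal fibroblast markers, as deviations from the group mean over 22 mice. Col1a2 gave r = 0.94 and rho = 0.93 (permutation p = 1e-05 for each, the smallest that 100000 resamples can give, adjusted p = 6e-05), and r = 0.92 without the 2 mice farthest from the median. Col1a1 gave r = 0.73 and rho = 0.72 (permutation p = 0.00036 and 0.00063, adjusted p = 0.00108 and 0.00138), and 0.69 without those mice. Col3a1 gave r = 0.72 and rho = 0.75 (permutation p = 0.00069 and 0.00023, adjusted p = 0.00138 and 0.00092), and 0.73 without them. With deviations taken within group and within the first 9 or the last 13 arrays, r was 0.95, 0.74 and 0.71 for Col1a2, Col1a1 and Col3a1. Within a group, mice with high Col1a2 were thus the mice with a high mean of the list, which holds genes such as Dcn, Igf2 and Slc6a13.

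The vessel collagens were set against the endothelial marker mean. Col4a1 gave r = 0.52 and rho = 0.44 (permutation p = 0.0374 and 0.060, adjusted p = 0.0641 and 0.0901), and r = 0.25 without the 2 mice farthest from the median of the marker mean. Col18a1 gave r = 0.45 and rho = 0.31 (permutation p = 0.0689 and 0.192, adjusted p = 0.0918 and 0.231), and 0.18 without 2 mice. Col4a2 gave r = -0.01 and rho = -0.04 (permutation p = 0.970 and 0.879, adjusted p = 0.970 and 0.959). Within group and run of arrays r was 0.51, 0.43 and -0.16 for Col4a1, Col18a1 and Col4a2. These 6 pairs with 2 coefficients each made a family of 12 tests, and adjusted values are Benjamini-Hochberg over them.

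**Figure D4:**
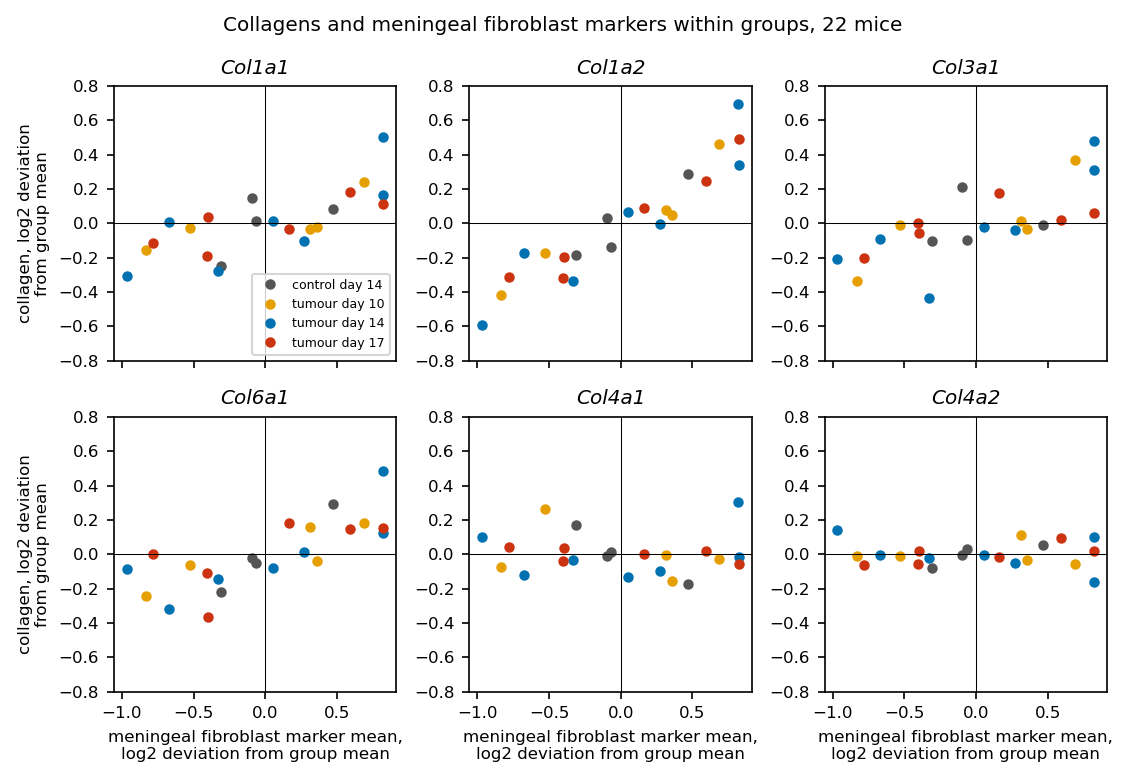
Deviation of 6 collagens from their group mean (y axis, log2) against that of the mean of 12 meningeal fibroblast markers (x axis, log2), 1 point for each of the 22 mice, coloured by group. Col1a2 follows the markers closely (r = 0.94), Col1a1, Col3a1 and Col6a1 less so, and Col4a2 stays near 0 (r = -0.01).

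The same was then asked of all 42 collagens with 4 marker lists, a family of 336 tests chosen after the first results were seen. 5 of the collagens had r above 0.7 with the meningeal markers, 11.9% of the 42 against 0.973% of all genes. They were Col1a1, Col1a2, Col3a1, Col6a1 (r = 0.77, rho = 0.77, permutation p = 1e-04 and 0.00014, adjusted p = 0.0084 for each) and Col6a2 (r = 0.76, rho = 0.78, permutation p = 0.0007 and 0.00044, adjusted p = 0.0138 and 0.0116). Without the 2 mice farthest from the median r was 0.79 for Col6a1 and 0.70 for Col6a2. The median r with the meningeal markers was 0.24 for fibrillar, 0.055 for basement membrane and 0.17 for other collagens, against -0.005 for all genes. For basement membrane collagens it was 0.23 with mural, 0.39 with endothelial and 0.54 with oligodendrocyte precursor markers, against 0.006, 0.068 and 0.14 for all genes. With the same lists it was 0.28, 0.30 and 0.33 for fibrillar and 0.20, 0.27 and 0.34 for other collagens. Of the 5, Col1a1 and Col3a1 had a higher r with the mural cell markers (0.82 and 0.78) than with the meningeal ones (0.73 and 0.72), and the difference was not tested. With the border macrophage markers, r was above 0.7 for Col1a2, Col3a1, Col4a5 and Col6a4, 9.52% of the 42 against 0.856% of all genes. Of these 5 markers, 2 had a mean at or below background in each group, and Col6a4 (3.88) was close to background. No permutation test was run for this list.

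With the mural marker mean, Col1a1, Col1a2, Col3a1 and Col10a1 had r above 0.7, 9.52% of the 42 against 0.893% of all genes. For Col10a1 r dropped from 0.73 to 0.19 without 2 mice (adjusted permutation p = 0.122). Col19a1, the neuronal collagen, ran the other way with r = -0.75 and rho = -0.78 (permutation p = 0.00183 and 0.00035, adjusted p = 0.028 and 0.011), and r = -0.59 without 2 mice. Col3a1 was the only collagen with r above 0.7 with the endothelial mean (r = 0.71, rho = 0.53, permutation p = 0.00176 and 0.0225, adjusted p = 0.028 and 0.143), 2.38% of the 42 against 0.569% of all genes. Col28a1 came next by r and had the higher rho (r = 0.67, rho = 0.76, permutation p = 0.00177 and 0.00036, adjusted p = 0.028 and 0.011), with r = 0.63 without 2 mice. With oligodendrocyte precursor markers, Col4a1 and Col4a4 had r of 0.72 (0.29 and 0.65 without 2 mice), 4.76% of the 42 against 1.46% of all genes. These marker means were not separated from each other by the tests.

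**Figure D5:**
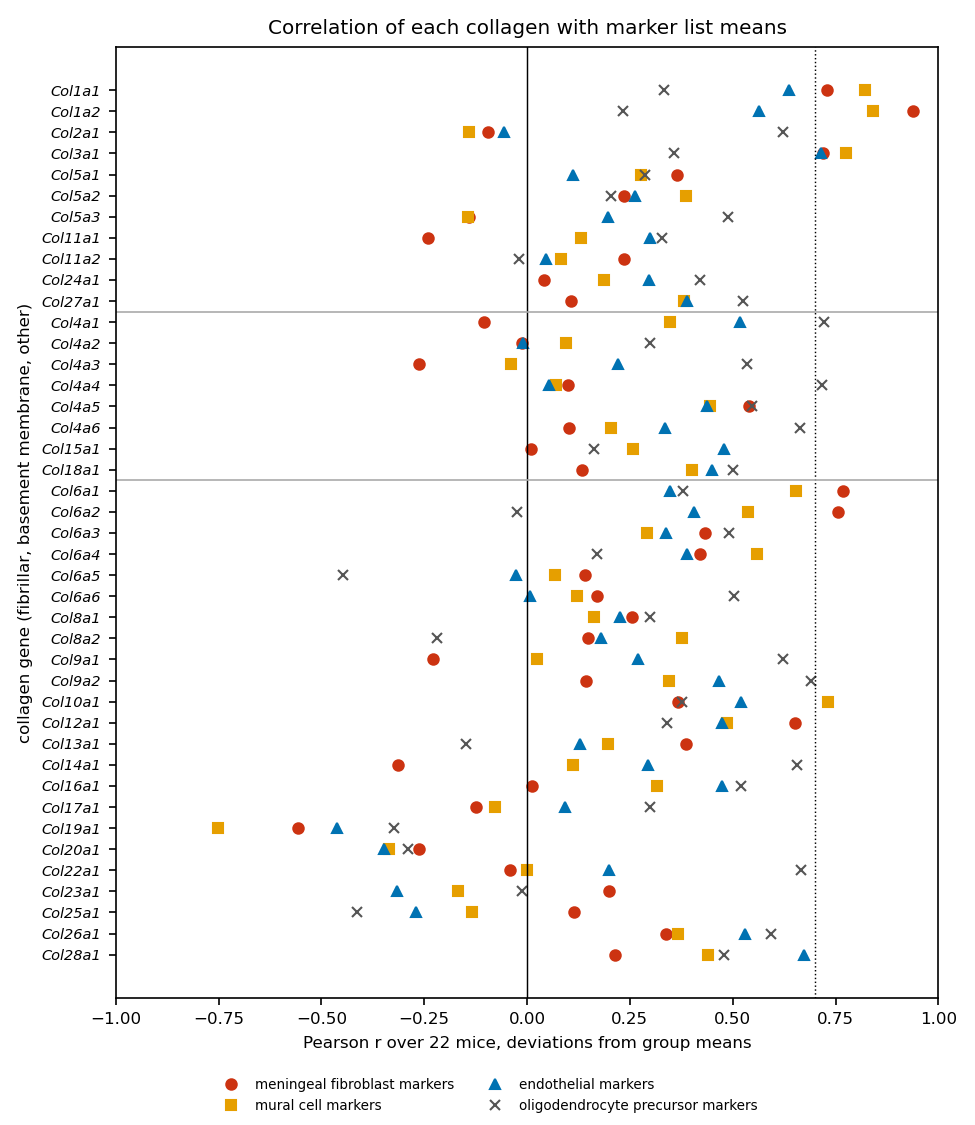
Pearson r over 22 mice (x axis) of each collagen (y axis) with the mean of 4 marker lists, as deviations from group means. The dotted line marks 0.7, which 5 of 42 collagens pass with the meningeal fibroblast markers.

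Chains that assemble into 1 protein or share fibres were also compared from mouse to mouse. Of 10 pairs (20 tests), Col1a1 and Col1a2 gave r = 0.88 and rho = 0.82 (permutation p = 1e-05 and 3e-05, adjusted p = 0.0002 for each), and 0.80 without the 2 mice farthest from the median. Col1a2 and Col3a1, whose products share fibres, gave r = 0.82 and rho = 0.85 (permutation p = 0.0001 and 2e-05, adjusted p = 0.0005 and 0.0002). Col6a1 and Col6a2 gave r = 0.54 and rho = 0.61 (permutation p = 0.0182 and 0.0057, adjusted p = 0.052 and 0.0228). Col4a1 and Col4a2 gave r = 0.21 and rho = 0.16 (permutation p = 0.429 and 0.509, adjusted p = 0.613 and 0.629), and their start sites lie 21 bases apart. Col4a5 and Col4a6, whose start sites lie 1343 bases apart on chromosome X, gave r = 0.49 and rho = 0.51 (permutation p = 0.0125 and 0.0209, adjusted p = 0.0418 and 0.0522). For the other 5 pairs adjusted p was at least 0.0715 by either coefficient. Col4a2 varied little between mice, with an SD within groups of 0.076 at the 11.1th percentile of all genes, against 0.132 for Col4a1.

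The 4 collagens with a second probe set were also read on it. The 2 probe sets of Col6a5 differed in sign on every day: the other one gave 0.02 ± 0.09, -0.06 ± 0.09 and -0.16 ± 0.09 on days 10, 14 and 17, against -0.01 ± 0.14, 0.18 ± 0.13 and 0.14 ± 0.13. Those of Col20a1 differed in sign on day 10 (0.12 ± 0.09 against -0.17 ± 0.09). The other probe set of Col5a1 was higher on day 10 by 0.31 ± 0.11 against 0.18 ± 0.08. None of these passed the adjusted threshold when every probe set was tested on its own.

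Genes that make, link, bind or degrade collagen were likewise short of the threshold, with 0 members past the adjusted threshold in each of 6 lists and each comparison with control. The shares of all genes, past it and at an unadjusted p below 0.05, are those given above for the collagens. Of 24 measured genes for collagen synthesis and processing, 12, 12 and 10 had the higher mean on days 10, 14 and 17. At an unadjusted p below 0.05 the counts were 1 higher and 0 lower on day 10, 1 and 1 on day 14, and 1 and 5 on day 17. Plod1, which hydroxylates collagen lysines, differed by -0.30 ± 0.08 on day 17 (limma adjusted p = 0.0681), and P4ha2, a prolyl hydroxylase subunit, by -0.23 ± 0.08 (adjusted p = 0.152). Pcolce, which enhances procollagen cleavage, differed by 0.63 ± 0.28 on day 10 (adjusted p = 0.434). Of the 4 measured cross-linking genes, 3 had a mean at or below background in each group, and 4, 2 and 3 had the higher mean. Of these, 2 had an unadjusted p below 0.05 on day 10, among them Loxl4 (0.21 ± 0.07, adjusted p = 0.314), and 0 did on days 14 and 17.

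Of 22 collagen-binding proteoglycans and fibril partners, 20, 18 and 17 had the higher mean, with median differences of 0.235, 0.170 and 0.082, and 3 were higher at an unadjusted p below 0.05 on each day. Fn1, the fibronectin on which collagen fibres are laid down, differed by 0.61 ± 0.23, 0.82 ± 0.22 and 0.78 ± 0.22 (adjusted p = 0.362, 0.131 and 0.0894). Postn, which helps collagen to cross-link, differed by 0.37 ± 0.10 on day 17 (adjusted p = 0.0678). Dcn, Lum, Fmod and Ogn are in this list and also among the meningeal fibroblast markers. Of 16 basement membrane partners, 11, 10 and 9 had the higher mean. At an unadjusted p below 0.05, 3 were higher and 1 lower on day 10, 0 on day 14, and 1 lower on day 17. Lama1, a laminin chain of the pial surface, differed by 0.25 ± 0.07 on day 10 (adjusted p = 0.219). Agrn, the gene lower on days 10 and 17, differed by -0.13 ± 0.05 and -0.10 ± 0.05 (limma adjusted p = 0.340 and 0.286).

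Of 9 collagen receptors, 6 had the higher mean on each day, and 2, 0 and 1 were higher at an unadjusted p below 0.05. Itga11, the integrin subunit of fibroblasts that binds fibrillar collagen, differed by 0.29 ± 0.09 on day 10 (adjusted p = 0.221) and 0.23 ± 0.08 on day 17 (adjusted p = 0.161). Ddr2, a receptor kinase for fibrillar collagen, differed by 0.45 ± 0.17 on day 10 (adjusted p = 0.339). Of 13 proteases and inhibitors, 8, 9 and 8 had the higher mean. At an unadjusted p below 0.05 the counts were 0 on day 10, 1 higher and 1 lower on day 14, and 1 higher on day 17. Timp4, an inhibitor of metalloproteinases, differed by 0.18 ± 0.06 on day 14 and by 0.18 ± 0.06 on day 17 (adjusted p = 0.247 and 0.146), and Mmp14, a membrane collagenase, by -0.30 ± 0.10 on day 14 (adjusted p = 0.254).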

How the data were processed

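Per the submitters' processing notes, the authors used RMA on 1-colour arrays, which gives log2 values. RMA corrects background, normalizes between arrays and summarizes probes. RMA's version and the build and annotation behind it are not given in the sources used here. Of 35556 probe sets in the table, 21218 name 1 gene in the platform annotation, 1881 name several and 12457 are unnamed. All genes were kept whatever their level, and the number of arrays limits the precision.

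The labels describe separate mice. For 18820 genes on 22 arrays, limma 3.58.1 under R 4.3.3 fitted 4 group means by lmFit, and eBayes without trend tested the contrasts on 18 residual degrees of freedom. Tests were two-sided with Benjamini-Hochberg adjustment over all genes, and the threshold was an adjusted p of 0.05. Errors of differences are SE and those of group means SD. Correlations used deviations from group means and 100000 permutations within groups. The fit and the correlation step were tested on simulated data. Figures were drawn with matplotlib 3.10.9.

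The members, gene lists and rules were chosen with earlier results of these data known. Under the rule for named genes every collagen could be named. Values per mouse are given for Col1a1, Col1a2, Col3a1, Col4a1, Col4a2 and Col18a1, for collagens past the threshold and for the smallest p of each comparison, and values for Col6a1 were added after they were seen. Of each other list, members past the threshold or otherwise up to 2 with the smallest p were eligible and are given by example.

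Alternative settings concerned eBayes, weights for arrays, the scaling, genes near background, the choice of probe set, the groups fitted and the threshold. Others added the replicate number, the order of deposition or a marker mean to the model, or left out arrays. Each part of the deposition order alone (a split that the labels do not describe as a batch), the fit without the 4 arrays highest in thalamus markers and the correlations of all 42 collagens were chosen after seeing the data. The main fit did not use the labels' replicate numbers to pair mice.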

Additional observations from a re-analysis of the deposited data

Results flagged for a closer look

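In groups of 4 to 7 mice, 24 of 168 groups held a mouse whose value stood apart from the rest by Dixon's test. Chance alone gives such a mouse in about 1 group in 20. The same 22 arrays underlie all genes, so these groups are not independent. Col14a1, a collagen of fibre surfaces, had replicate 1 standing apart as the highest mouse on day 10 (4.93), day 14 (4.76) and day 17 (4.78), and replicates of different groups are different mice.

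Further mice stood apart as the highest of their group. Among basement membrane collagens these were the Col4a2 value of 6.26 and the Col4a3 value of 4.61 on day 10. Among fibrillar collagens they were Col2a1 at 5.13 on day 14 and 5.16 on day 17, Col5a3 at 4.71 on day 14 and Col27a1 at 5.19 on day 17. Among the others they were Col9a2 at 5.32 in control and 5.64 on day 10, Col10a1 at 3.61 on day 10 and 3.97 on day 14, Col25a1 at 7.15 on day 10, Col8a1 at 5.57 on day 14 and Col6a4 at 4.02 on day 17.

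Mice that stood apart as the lowest were seen for Col4a5 on day 10 (4.01), for Col6a3 (4.07), Col11a2 (4.37) and Col19a1 (4.49) on day 14, and for Col5a2 (3.99), Col24a1 (4.27), Col8a1 (4.90) and Col23a1 (5.71) on day 17. The Col5a2 and Col24a1 values came from the same mouse, replicate 2 of day 17.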

How the results depend on the processing

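The number of collagens past the threshold stayed 0 in each of 18 other settings (17 for the F test) and in all 22 fits with 1 array left out, for every comparison except day 17 against control. There the count of 1, Col15a1, became 0 in 9 of 18 settings. These were eBayes with trend (adjusted p = 0.0501), median centring (0.0841), a second quantile normalization (0.061), only the groups compared (0.111), the meningeal marker mean (0.0596) or the thalamus marker mean (0.128) as a covariate, the last 13 arrays alone (0.199), the first 9 arrays alone (0.735, with 1 control assumed to vary like the other groups) and the fit without the 4 arrays highest in thalamus markers (0.363, with 2 controls). With 1 array left out the count ranged from 0 to 1. The difference stayed negative throughout, from -0.41 to -0.28, or -0.43 to -0.32 with 1 array left out. Some of these fits held fewer arrays, and why the call was lost was not tested. The signs of the correlations and their side of the threshold held after median centring and within the parts of the deposition order.

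Over all genes, the day 17 split of 82 higher and 129 lower became 134 and 55 with centred arrays and 93 and 67 after quantile normalization. Deviations of same-numbered mice of different groups correlated at 0.067 on average (28 pairs, -0.19 to 0.35). For mice of other numbers in different groups the mean was -0.011 (151 pairs, -0.28 to 0.50), and the difference was not tested. With the replicate number as a block the count on day 17 stayed 1 (Col15a1, -0.32, adjusted p = 0.0394) and the others stayed 0, while calls over all genes moved from 41 to 140 on day 14 and from 211 to 616 on day 17.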
